A study of Mus musculus with 2 samples.

Results

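The genes described here are 32 mouse genes of the unfolded protein response and the integrated stress response, chosen as a fixed list of symbols and matched exactly to the gene table, which lists 17219 genes. All 32 were found, and all 32 had a fold change in both comparisons of the table, so no filter on low values removed a member. They were grouped by role into 10 chaperones of the endoplasmic reticulum (ER), 5 disulfide isomerases and related proteins, 1 subunit of the ER translocon, 5 genes of ER-associated degradation (ERAD), 4 stress sensors, 3 transcription factors and 4 targets of ATF4 and CHOP.

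The study set organoids of mice with floxed Fabp4 alleles (FABP4fl/fl, labelled WT) beside organoids of FABP4fl/flpvillinCreT mice (labelled F4KO; the genotype label reads knockdown, the title KO). Fabp4 encodes a fatty acid binding protein, the villin promoter is active in the intestinal epithelium, and both groups carry the floxed alleles. Crypts were grown in Matrigel with IntestiCult medium and harvested on day 6, with 1 library for each genotype; the labels give neither the number of mice behind a library nor a Cre-positive control without floxed alleles. The same table holds a second comparison whose header names WTEpi and F4KOEpi libraries; the labels used here do not describe them, so they are called WT Epi and F4KO Epi, and nothing is said of what they were made from.

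When unfolded proteins collect in the ER, the chaperone BiP (Hspa5) leaves the sensors, IRE1, PERK and ATF6. IRE1 removes a short stretch from the Xbp1 mRNA, which shifts the reading frame and gives the active factor XBP1s; ATF6 is cut in the Golgi to release a transcription factor; PERK phosphorylates eIF2α, which slows translation in general and favours that of Atf4. ATF4 is shared with the other eIF2α kinases that answer to lack of amino acids, haem shortage or viral RNA, and this shared arm is called the integrated stress response. In the intestine, Paneth and goblet cells secrete large amounts of protein and depend on XBP1, and goblet cells carry a second IRE1, encoded by Ern2.

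The deposited files hold no count per library. Read numbers were recovered from the authors' deposited p-values and fold changes, and 63 of the 64 gene values of the members (32 genes in 2 comparisons) came out as a single pair of whole read numbers; the exception was Sel1l in the organoid comparison. Organoid reads of a member ran from 40 to 22934 and Epi reads from 19 to 48509. The total of the F4KO organoid library was 0.992 times that of WT, and the total of F4KO Epi was 0.813 times that of WT Epi; the totals themselves were not recovered. A ratio below is F4KO over WT reads, divided by the ratio of the totals, with an exact (Clopper-Pearson) 95% interval that covers counting error only. With 1 library a genotype no difference has a replicate check. A call below needs a fold of at least 1.5 and a false discovery rate (FDR) of at most 0.001 in the authors' deposited table; that FDR compares the reads of 2 libraries, not the genotypes.

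Some features of the libraries touch every result. Fabp4 itself had 1 and 0 reads in the WT and F4KO organoids and 1 and 4 in the Epi libraries, too few to check the genotype. Of 4 Y-linked genes, 3 were near 0 in WT organoids and present in F4KO organoids (Eif2s3y 1 and 879 reads, Ddx3y 1 and 230, Kdm5d 0 and 249), and Uty had 30 and 208 reads. All 4 were present in both Epi libraries (Eif2s3y 889 and 714), and in the organoid pair genotype cannot be told apart from the sex of the mice. The median gene of the organoid comparison had a deposited log2 fold change of 0.00 over 15845 genes. In the Epi comparison that median was 0.38 over 16336 genes in the authors' deposited table, a 1.30-fold shift towards F4KO of the typical gene. Changes in the Epi pair are therefore also given relative to that median. In bulk RNA, fewer cells of a type and less RNA in each cell cannot be told apart.

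Short sequences through which stress factors are known to act are shown first, since 8 of the 27 members with a promoter in the RefSeq table (GRCm38.p6, 250 bases before to 50 after the start) held the ER stress response element. That element, ERSE, is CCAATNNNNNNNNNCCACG, where ATF6 and XBP1 bind next to the factor NF-Y. It was searched on both strands. It was in 29.6% of the member promoters and in 39 of all 32851 promoters (0.119%). The 8 members with the element are below, 5′ to 3′ on the gene's strand, with the element in capitals and 12 flanking bases; an element on the other strand reads as its reverse complement. Hsp90b1 held a pair.
Hspa5: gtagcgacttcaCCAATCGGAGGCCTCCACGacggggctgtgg
Hsp90b1, distal: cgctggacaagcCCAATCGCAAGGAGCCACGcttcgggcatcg
Hsp90b1, proximal: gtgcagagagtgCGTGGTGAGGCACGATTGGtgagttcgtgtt
Calr: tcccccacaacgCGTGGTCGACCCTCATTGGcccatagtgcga
Canx: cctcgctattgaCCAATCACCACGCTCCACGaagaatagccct
Dnajc3: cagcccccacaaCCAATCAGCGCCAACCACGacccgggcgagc
Pdia6: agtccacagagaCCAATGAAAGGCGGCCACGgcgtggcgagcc
Creld2: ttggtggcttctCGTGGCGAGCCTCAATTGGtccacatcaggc
Syvn1: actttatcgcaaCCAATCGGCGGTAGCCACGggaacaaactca

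On GRCm38.p6 these stretches lie at chr2:34772013-34772055 (Hspa5, + strand), chr10:86705626-86705668 and chr10:86705521-86705563 (Hsp90b1, − strand), chr8:84847063-84847105 (Calr, − strand), chr11:50325788-50325830 (Canx, − strand), chr14:118937815-118937857 (Dnajc3, + strand), chr12:17266479-17266521 (Pdia6, + strand), chr15:88819508-88819550 (Creld2, + strand) and chr19:6046520-6046562 (Syvn1, + strand). The element began between 44 bases (Syvn1) and 212 bases (Hsp90b1, distal) before the start of transcription. The flanks CCAAT and CCACG are shared by rule, while the bases between them differ from gene to gene.

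A shorter variant, ERSE-II (ATTGG and CCACG with 1 base between), was in 12 of all promoters (0.0365%) and in those of Herpud1 and Dnajb11, the latter just after the start. The C/EBP-ATF element through which ATF4 acts (CARE, TGATGCAA) was in 294 promoters (0.895%), with Chac1 and Herpud1 among them. The XBP1-type element UPRE (TGACGTGG) was in 222 promoters (0.676%) and in 0 member promoters, which says only that these letters are not in these windows. Herpud1 is shown for its 2 elements, and Chac1 as the member with the largest Epi ratio.
Herpud1, ERSE-II: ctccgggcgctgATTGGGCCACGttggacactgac
Herpud1, CARE: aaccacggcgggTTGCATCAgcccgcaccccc
Chac1, CARE: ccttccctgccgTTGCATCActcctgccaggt

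These lie at chr8:94386365-94386399 and chr8:94386305-94386336 (Herpud1, + strand) and chr2:119351037-119351068 (Chac1, + strand). In both genes the CARE letters stand on the strand opposite to the gene. A match of letters is a description of the promoter and not a measurement of binding.

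Across the module, the organoids differed little between the genotypes and the Epi libraries differed more. In the organoid comparison 0 of 32 members were called, beside 0.271% of all genes called higher and 0.94% called lower in F4KO. In the Epi comparison 12 members were called higher in F4KO (37.5%), where 20% of all genes were, and 1 member, Trib3, was called lower (3.12%), where 2.51% of all genes were. After the median of all genes was subtracted, 5 members were higher (Pdia4, Pdia6, Ern2, Chac1, Asns; 15.6%, against 11.6% of all genes) and 3 lower (Trib3, Dnajb9, P4hb; 9.38%, against 6.89% of all genes). Without a fold limit, 4 members passed the FDR higher in F4KO organoids (P4hb, Derl1, Atf4, Trib3), where 3.09% of all genes did, and 2 lower (Hsp90b1, Canx), where 4.7% did. In the Epi comparison 21 members passed the FDR higher, where 30.6% of all genes did, and 3 lower, where 7.92% did.

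The median member in the authors' deposited table had a log2 fold change of 0.07 in the organoid comparison, with members between −0.34 and 0.44. In the Epi comparison that median was 0.46 in the authors' deposited table, or 0.08 above the median of all genes, and members lay between −0.98 and 1.96. The summed reads of the 31 members with reads in all libraries had a ratio of 1.02 in the organoids and 1.18 in the Epi pair. P4hb alone held a large part of these sums, and without it the ratios were 0.996 and 1.45. Members had the same sign in both comparisons in 17 of 32 cases (53.1%), near the 47.4% of all genes with a fold change in both. Opposite signs with the FDR at most 0.001 in both were found for 4 members (12.5%; Hsp90b1, Canx, P4hb and Trib3), where 3.06% of all genes had them.

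**Figure D1:**
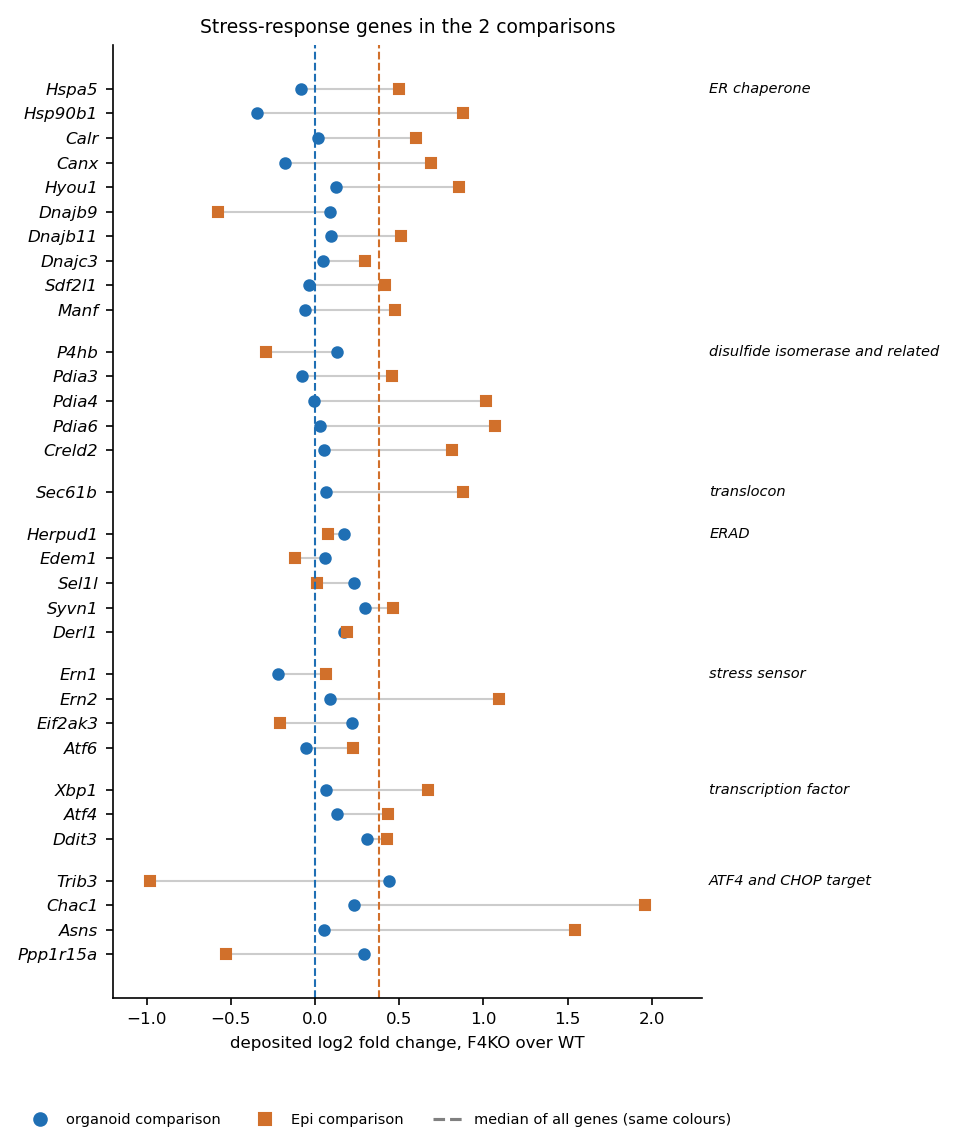
Deposited log2 fold change (x axis, F4KO over WT) of the 32 members by role, with circles for the organoid comparison, squares for the Epi comparison and dashed lines at the median of all genes in each. Organoid values sit between −0.34 and 0.44, while Epi values spread from −0.98 (Trib3) to 1.96 (Chac1).

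Among the ER chaperones, the organoids showed Hsp90b1 and Canx lower in F4KO and the rest close to even. The Epi pair showed 9 of 10 higher, where 11708 of all 16336 genes had a value above 0. Of the 10, 4 were called higher (Hsp90b1, Calr, Canx, Hyou1), where 20% of all genes were. After centring on the median of all genes, these 4 were not called and Dnajb9 was called lower. Above that median were 8 of the 10. Hsp90b1 encodes GRP94, an ER chaperone of the HSP90 family (chromosome 10, 86690841 to 86705444). It had 8482 reads in WT organoids and 6626 in F4KO organoids, a ratio of 0.787 (0.762 to 0.813), the lowest organoid ratio of the module. Of the Epi libraries, WT held 5037 reads and F4KO 7541, a ratio of 1.84 (1.78 to 1.91). The gene was thus lower in F4KO in one pair and higher in the other.

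Canx encodes calnexin, a membrane lectin that holds glycoproteins while they fold (chromosome 11, 50293957 to 50325673). It had 5150 reads in WT organoids and 4520 in F4KO, a ratio of 0.885 (0.850 to 0.921). The Epi libraries held 5037 and 6612 reads, a ratio of 1.61 (1.56 to 1.68), again the opposite direction. Its soluble relative calreticulin, Calr (chromosome 8, 84842088 to 84846931), had 8937 and 8984 organoid reads, a ratio of 1.01 (0.984 to 1.04); the annotation holds a processed pseudogene, Calr-ps, with which it could share reads. In the Epi pair Calr had 12412 and 15292 reads, a ratio of 1.52 (1.48 to 1.55). Both lectins, which serve the same folding cycle, were called higher in F4KO Epi; in the organoids Canx passed the FDR and Calr did not.

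Hspa5, the central ER chaperone (chromosome 2, 34772090 to 34776529), had 8054 and 7536 organoid reads, a ratio of 0.943 (0.914 to 0.973). Its Epi reads were 6003 and 6892, a ratio of 1.41 (1.36 to 1.46), under the fold limit and 0.12 above the median of all genes on the deposited log2 scale in the authors' deposited table. Hyou1, an ER chaperone of the HSP110 family that serves as exchange factor for BiP, had 1497 and 1622 organoid reads and 1211 and 1783 Epi reads, with ratios of 1.09 (1.02 to 1.17) and 1.81 (1.68 to 1.95). Both were higher in F4KO Epi, and the interval for Hyou1 lay above that for Hspa5.

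Dnajb9 (ERdj4), a BiP cochaperone and a classic IRE1-XBP1 target, went against the other chaperones in the Epi pair. It had 413 and 436 organoid reads, a ratio of 1.06 (0.928 to 1.22), and 1197 and 654 Epi reads, a ratio of 0.672 (0.610 to 0.740), which is 1.49-fold lower and just short of the fold limit. The remaining 4 chaperones, all under the fold limit in both pairs, were Dnajb11, Dnajc3, Sdf2l1 and Manf. Dnajb11 and Dnajc3 are J-domain cochaperones of BiP, Sdf2l1 works with Dnajb11, and Manf is a secreted factor that ER stress induces. Their organoid ratios ran from 0.961 (Manf) to 1.07 (Dnajb11) and their Epi ratios from 1.23 (Dnajc3, below the median gene after centring) to 1.43 (Dnajb11).

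The disulfide isomerases, which form and rearrange disulfide bonds in secreted proteins, held the highest Epi median of the groups with more than 1 member, a log2 fold change of 0.81 in the authors' deposited table, against 0.03 in the organoids. Pdia6 (chromosome 12, 17266589 to 17284785) had 5430 and 5487 organoid reads, a ratio of 1.02 (0.981 to 1.06). It had 1315 reads in WT Epi and 2246 in F4KO Epi, a ratio of 2.10 (1.96 to 2.25). Pdia4 (chromosome 6, 47796141 to 47813512), also called ERp72, had 1279 and 1263 organoid reads, and 531 and 874 Epi reads, a ratio of 2.02 (1.82 to 2.26). Both had organoid intervals that include 1, and both were called in the Epi pair with and without centring.

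Creld2, an ER protein induced by ER stress, had 367 and 378 organoid reads and 408 and 582 Epi reads, an Epi ratio of 1.75 (1.54 to 2.0). Pdia3, which pairs with calnexin and calreticulin, had an organoid ratio of 0.949 (0.919 to 0.979) and an Epi ratio of 1.38 (1.34 to 1.41). Sec61b, the small β subunit of the translocon channel through which nascent proteins enter the ER (chromosome 4, 47474661 to 47483233), had 2137 and 2220 organoid reads, and 828 and 1239 Epi reads, an Epi ratio of 1.84 (1.69 to 2.01). These 3 genes were higher in F4KO Epi, and Creld2 and Sec61b passed the fold limit, though not after centring.

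P4hb, the founding protein disulfide isomerase and a subunit of collagen prolyl hydroxylase, was the most abundant member by reads (chromosome 11, 120560298 to 120573253). It had 21137 reads in WT organoids and 22934 in F4KO, a ratio of 1.09 (1.07 to 1.11). In the Epi libraries it had 48509 and 32233 reads, a ratio of 0.818 (0.806 to 0.829), or 1.22-fold lower. Among the 5 genes of its group it alone was lower in F4KO Epi, and relative to the median gene it was lower by more than 1.5-fold there. Another enzyme of the same family among the other ER genes, Pdia5, had 135 and 259 Epi reads, a ratio of 2.36.

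The ERAD genes, which pull misfolded proteins back to the cytosol for destruction, differed less between the Epi libraries than the chaperones did: 0 of 5 were called, and the group's Epi median was a log2 fold change of 0.08 in the authors' deposited table, below that of all genes. In the organoids the group's median in the authors' deposited table was 0.17 and all 5 values were above 0. Syvn1, the ubiquitin ligase HRD1 at the centre of the main ERAD complex, had 483 and 582 organoid reads, a ratio of 1.22 (1.07 to 1.37), and 1677 and 1849 Epi reads, a ratio of 1.36 (1.27 to 1.45). Derl1, a derlin of the ER membrane, had 2143 and 2393 organoid reads and 1962 and 1821 Epi reads, with ratios of 1.13 (1.06 to 1.19) and 1.14 (1.07 to 1.22). Its 2 ratios were nearly the same, but the Epi one was below the median gene.

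Edem1, a lectin that hands mannose-trimmed glycoproteins to ERAD, had an organoid ratio of 1.04 (0.945 to 1.15) and the lowest Epi ratio of the group, with 2746 and 2013 reads and a ratio of 0.902 (0.851 to 0.956). Herpud1, a stress-induced scaffold of the ERAD complex and the member with both an ERSE-II and a CARE in its promoter, had 1302 and 1454 organoid reads, a ratio of 1.13 (1.04 to 1.21). Its Epi ratio of 1.06 (0.972 to 1.15) could not be told from 1 at this depth. Sel1l, the partner of Syvn1, had 2536 and 2070 Epi reads, a ratio of 1.0 (0.947 to 1.06), and an organoid log2 fold change of 0.23 in the authors' deposited table.

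Of the 4 stress sensors, 1 was called in the Epi pair. Ern2, Ern1 and Eif2ak3 had the fewest organoid reads of the members with recovered reads. Ern2 encodes IRE1β, the form of IRE1 that is restricted to mucus-secreting epithelia (chromosome 7, 122169893 to 122186239). It had 40 and 49 organoid reads, a ratio of 1.24 (0.797 to 1.92), which at this depth leaves a difference undetectable. It had 152 and 278 Epi reads, a ratio of 2.25 (1.84 to 2.76), and was called with and without centring. Of its transcripts, NM_012016.3 had 0 and 165 Epi reads, NM_001316689.1 had 86 and 99, and the predicted ones had fewer in F4KO. The gene value is their sum, and the division between them was not examined.

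The other sensors were not called in either pair. Ern1, the IRE1α found in all tissues, had 101 and 86 organoid reads and 247 and 210 Epi reads, with ratios of 0.858 (0.636 to 1.16) and 1.05 (0.866 to 1.26). Eif2ak3, which encodes PERK, had 155 and 167 organoid reads and 710 and 497 Epi reads, with ratios of 1.09 (0.868 to 1.36) and 0.861 (0.766 to 0.967). Atf6, the sensor that becomes a transcription factor, had ratios of 0.964 (0.855 to 1.09) and 1.17 (1.06 to 1.30). Ern1 and Atf6 in the Epi pair were above 0 on the deposited scale but below the median of all genes.

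The 3 transcription factors were above even in both pairs, and Xbp1 alone was called, in the Epi pair and not after centring. Xbp1 (chromosome 11, 5520641 to 5525993) had 5096 and 5290 organoid reads, a ratio of 1.05 (1.01 to 1.09), and 3577 and 4625 Epi reads, a ratio of 1.59 (1.52 to 1.66). Atf4, the factor shared by all eIF2α kinases, had 7218 and 7790 organoid reads, a ratio of 1.09 (1.05 to 1.12), and 4003 and 4385 Epi reads, a ratio of 1.35 (1.29 to 1.41). Ddit3, which encodes the proapoptotic factor CHOP and is induced by ATF4, had 559 and 683 organoid reads, a ratio of 1.23 (1.10 to 1.38), the highest of the 3 in the organoids. Its Epi reads were 257 and 276, a ratio of 1.32 (1.11 to 1.57), at the level of the median gene. ATF4 is controlled mainly through translation, which these mRNA reads do not measure.

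Xbp1 is the member whose activation leaves a mark in the mRNA itself. IRE1 cuts at both ends of 26 bases in exon 4, each end set in a loop with the letters CNGCAG, and the joined mRNA is read in another frame. A search of the full Xbp1 transcript found 2 pairs of such letters 26 bases apart; the pair in exon 4 is shown, since removal of its 26 bases lengthens the reading frame from 267 to 371 codons. The other pair, in exon 1, would shorten it to 73 codons. The removed bases are in capitals, with 20 coding bases on each side (GRCm38, chr11:5524259-5524324, + strand, coding sequence of exon 4).
Xbp1: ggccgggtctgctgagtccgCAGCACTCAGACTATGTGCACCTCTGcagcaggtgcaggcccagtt

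The transcript table lists both forms, NM_013842.3 with these bases and NM_001271730.1 without them. In the organoids the spliced form had 1362 reads in WT and 1314 in F4KO, beside 3733 and 3975 reads of the unspliced form. Its share was 26.7% (exact 95% interval 25.5 to 28.0) in WT and 24.8% (23.7 to 26) in F4KO. In the Epi libraries the spliced form had 1301 and 2440 reads and the unspliced form 2275 and 2184. There its share was 36.4% (34.8 to 38.0) in WT and 52.8% (51.3 to 54.2) in F4KO. So the Epi difference of Xbp1 lay mostly in reads given to the spliced form, with a ratio of 2.31 against 1.18 for the unspliced form. In the organoids the ratios were 0.973 and 1.07. The forms differ only in these 26 bases and their surroundings, most reads fit both, and the division between them is the authors' quantifier's. The intervals do not cover that division.

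**Figure D2:**
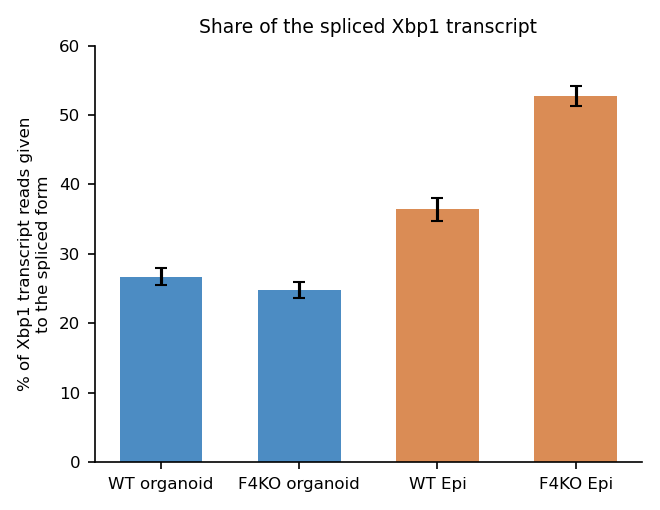
Share of Xbp1 transcript reads given to the spliced form (y axis, percent) in the 4 libraries, with bars starting at 0 and error bars for the exact 95% binomial interval, which covers counting error only. The organoid libraries stand at 26.7% and 24.8%, WT Epi at 36.4% and F4KO Epi at 52.8%.

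The 4 targets of ATF4 and CHOP held both the highest and the lowest Epi values of the module. Trib3, a pseudokinase that CHOP and ATF4 induce and that restrains ATF4 in turn (chromosome 2, 152337425 to 152344060), had 1089 reads in WT organoids and 1468 in F4KO, a ratio of 1.36 (1.26 to 1.47), the largest organoid ratio of the module. In the Epi libraries it had 296 and 122 reads, a ratio of 0.507 (0.407 to 0.628), which is 1.97-fold lower. Ppp1r15a, which encodes the phosphatase subunit GADD34 that reverses eIF2α phosphorylation, had the same directions at smaller size: 331 and 401 organoid reads, a ratio of 1.22 (1.05 to 1.42), and 229 and 129 Epi reads, a ratio of 0.693 (0.554 to 0.864). The 2 feedback genes of the arm were thus higher in F4KO organoids and lower in F4KO Epi, though Ppp1r15a did not pass the FDR in either pair.

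Chac1 and Asns went the other way in the Epi pair. Chac1, a glutathione-degrading enzyme induced by ATF4 (chromosome 2, 119351242 to 119354326), had 936 and 1092 organoid reads, a ratio of 1.18 (1.08 to 1.28). It had just 19 and 60 Epi reads, a ratio of 3.88 (2.29 to 6.89). Asns, asparagine synthetase, the amino acid response gene of the list (chromosome 6, 7675165 to 7693209), had 7038 and 7238 organoid reads, a ratio of 1.04 (1.0 to 1.07), and 206 and 489 Epi reads, a ratio of 2.92 (2.48 to 3.45). These were the 2 largest Epi ratios of the module, both on low Epi read numbers.

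Scaled to the WT organoid total, Asns and Chac1 stood far higher in the organoid than in the Epi libraries. Asns stood at 7038 and 7296 scaled reads in the organoids and at 184 and 537 in the Epi libraries, so that WT organoids held 38.3 times the reads of WT Epi. For Chac1 that factor was 55.2, for Trib3 4.12, for Ddit3 2.44, for Atf4 2.02 and for Ppp1r15a 1.62. The sensors stood the other way. WT Epi held 4.09 times the Eif2ak3 reads, 3.39 times the Ern2 reads and 2.18 times the Ern1 reads of WT organoids. For Atf6 that factor was 1.21. The ER chaperones and isomerases ranged from 4.63-fold more in WT organoids (Pdia6) to 2.59-fold more in WT Epi (Dnajb9). Of 31 members, 19 had more scaled reads in WT organoids than in WT Epi. These values set 1 library beside 1 library from separately made comparisons, and no test was made of them.

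**Figure D3:**
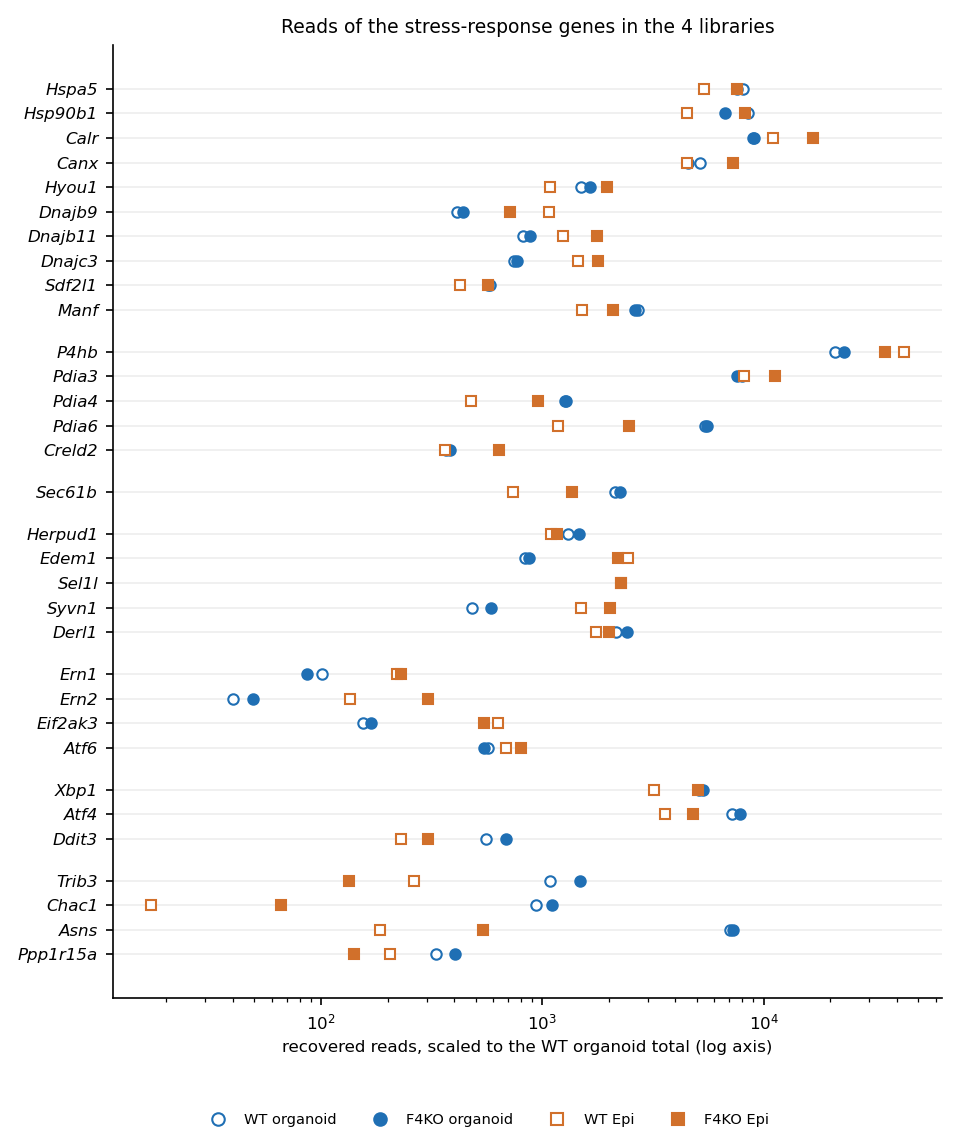
Recovered reads of each member (x axis, log scale), scaled to the WT organoid total, with open symbols for WT and filled ones for F4KO, circles for organoids and squares for Epi libraries (Sel1l has no recovered organoid reads). Organoid circles nearly coincide for most genes, while Chac1 and Asns lie far lower in the Epi libraries.

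Members with an ERSE in the promoter are described once as a group. The 8 had a median Epi log2 fold change of 0.65 in the authors' deposited table, ranging from 0.30 to 1.07, with 7 above the median of all genes and 5 called higher. The 19 members with a promoter but no ERSE, Herpud1 and Dnajb11 with their ERSE-II among them, had a median of 0.42 in the authors' deposited table. They ranged from −0.98 to 1.96, with 10 above the median of all genes, 5 called higher and 1 called lower. Of all genes, 20% were called higher and 2.51% lower. After centring, Pdia6 alone of the 8 was called. Of the 19, Pdia4, Chac1 and Asns were then called higher and Dnajb9, P4hb and Trib3 lower. In the organoids the medians in the authors' deposited table were 0.02 and 0.10. The ranges of the groups overlap in both comparisons, and no test was made of the groups.

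Transcripts of 1 gene were divided by the quantifier, and 16 of the 32 members have several listed transcripts. Among these, 12 transcripts in the Epi comparison and 8 in the organoid comparison had 0 reads in 1 library and reads in the other. In Eif2ak3, for example, NM_010121.3 had 0 and 99 organoid reads while a predicted transcript had 153 and 0, with the gene's sum almost even. In Edem1 a predicted transcript had 0 and 428 Epi reads beside 2746 and 1584 for NM_138677.2. Such exchanges between overlapping transcripts were not read as isoform changes, and the gene values above use their sums. The shares of the Xbp1 forms rest on the same kind of division and carry the same limit. Of the members, 7 overlap another gene of the table on the annotation (Hspa5, Pdia3, Pdia6, Syvn1, Atf6, Ddit3 and Ppp1r15a), and the labels do not say whether counting used strand.

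The wider pathways were described with 7 further lists, chosen with earlier results of these data known. In the organoids, 1 gene of all these lists was called: Atf5, an ATF4-related factor of the amino acid and mitochondrial stress responses, whose reads were 3456 in WT and 5177 in F4KO, a ratio of 1.51. Of the 29 other ATF4 and amino acid response genes, 11 passed the FDR higher and 1 lower in F4KO organoids at any fold. Of all genes, 3.09% passed it higher and 4.7% lower. Read numbers bear on the FDR, and those of the lists were not matched to all genes. Of the 29, 23 had a value above 0, with a median of 0.18 in the authors' deposited table against 0.00 for all genes. The 13 tRNA synthetases and the 8 mitochondrial chaperones and proteases had organoid medians of 0.11 and 0.17 in the authors' deposited table, and 3 of each list passed the FDR higher. The 1 gene of the 29 that passed the FDR lower was Gdf15, a secreted stress factor, with 1405 and 1074 reads, a ratio of 0.771. Of 28 other ER folding and secretory genes, 4 passed it higher and 2 lower in the organoids. Of 12 cytosolic heat shock genes, 1 passed it higher and 3 lower. Hsp90aa1 was among those lower, with 8220 and 5638 reads, a ratio of 0.691. The other ERAD genes and other regulators had 1 and 2 genes higher and 0 lower. Below 0 were 6 of the 29 genes and 3 of the 13 tRNA synthetases.

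In the Epi pair the same 29 genes split. Of the 28 with a fold change, 9 were called higher and 2 lower, where 20% and 2.51% of all genes were. The median was 0.59 in the authors' deposited table, against 0.38 for all genes. After centring, 7 of the 28 were called higher and 3 lower, where 11.6% and 6.89% of all genes were. The amino acid transporter Slc7a5 had 19 and 83 reads, a ratio of 5.37, and the proline-synthesis enzyme Pycr1 had 11 and 30, a ratio of 3.35. Without centring, the bZIP repressors Atf3 and Jdp2 were the 2 called lower: Atf3 had 2939 and 847 reads, a ratio of 0.355, and Jdp2 had 346 and 95, a ratio of 0.338. The other 17 were not called without centring. Among them were the cystathionine lyase Cth, with 769 and 613 reads, a ratio of 0.981, and the transporter subunit Slc3a2, with 8358 and 7057, a ratio of 1.04.

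All 13 tRNA synthetases of the list, a class with many ATF4 targets, passed the FDR higher in F4KO Epi, 8 of them called, with a median of 0.80 in the authors' deposited table. Vars had 292 and 825 reads, a ratio of 3.48, and Iars had 319 and 564, a ratio of 2.17. All 8 mitochondrial chaperones and proteases were called higher, led by Hspd1 with 1057 and 2159 reads, a ratio of 2.51, and its partner Hspe1 with 415 and 851, a ratio of 2.52. After centring, 4 of the 13 and 2 of the 8 were called. These counts stand beside the 20% of all genes called higher in this pair, or 11.6% after centring.

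Of 28 other ER folding and secretory genes, 12 were called higher in F4KO Epi and 0 lower, with Pdia5 and Sil1 the highest. Their median was 0.49 in the authors' deposited table, against 0.38 for all genes. After centring, 3 were called higher and 1 lower. The counts of this paragraph stand beside 20% of all genes called higher and 2.51% lower. After centring these shares were 11.6% and 6.89%. Of 14 other ERAD genes, 0 were called and the median in the authors' deposited table was 0.20, under that of all genes, as for the ERAD members. Of 19 other regulators, 6 were called higher, with Eif2ak4 (the amino acid sensor GCN2; 26 and 57 reads, a ratio of 2.70) and Creb3l1 (329 and 580, a ratio of 2.17) the highest. The 2 called lower were Creb3l3, a liver and gut factor cut like ATF6, and Creb3l2, with 2724 and 1305 reads, a ratio of 0.589. After centring, 2 of the 19 were called higher and 2 lower. Of 12 cytosolic heat shock genes, 3 were called higher (Hsp90ab1, Hsph1 and Hsp90aa1) and Hspa1b was called lower, with 190 and 89 reads. The heat shock genes had no common direction, with an Epi median of 0.32 in the authors' deposited table. After centring, 1 heat shock gene was called higher and 3 lower, and 1 of the other ERAD genes was called lower.

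**Figure D4:**
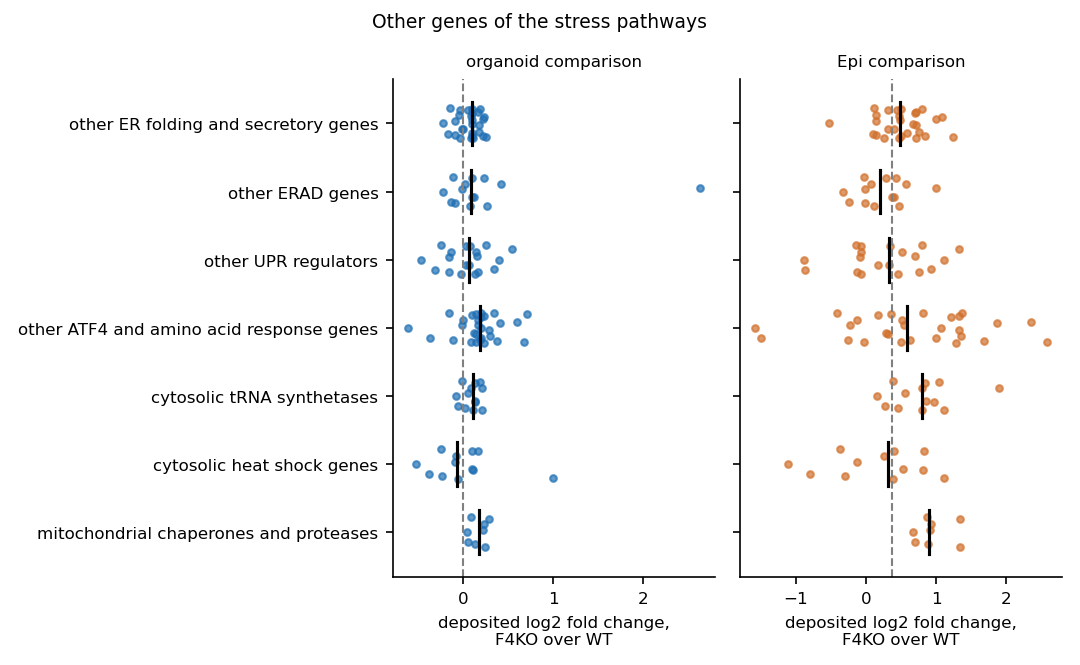
Deposited log2 fold change (x axis, F4KO over WT) of each gene of the 7 further lists in the organoid comparison (left) and the Epi comparison (right), with a black bar at each list's median and a dashed line at the median of all genes. Epi medians run from 0.20 (other ERAD genes) to 0.90 (mitochondrial chaperones and proteases), the farthest organoid point is Derl3, with 1 and 6 reads, and the x ranges differ.

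Markers of epithelial cell types differed between the same libraries. In the organoids, which held reads of enterocyte (Vil1, 5950 and 6400), Paneth (Lyz1, 6989 and 7536), goblet (Muc2, 371 and 344) and stem cell markers (Lgr5, 2320 and 1814), Paneth markers had a summed ratio of 1.20 with 8 of 9 above 0, and the stem cell marker Ascl2 was called lower, with 392 and 257 reads. The called markers that were higher were Clps of the Paneth list and Klk1 of the goblet list, with ratios of 1.60 and 1.76; goblet, enteroendocrine and enterocyte markers had summed ratios of 1.20, 1.18 and 1.09. Agr2, a disulfide isomerase that stands on both the goblet and the regulator list, had 3268 and 4718 reads, a ratio of 1.46. Their part in the results for Atf5, Trib3 and the ERAD genes was not tested.

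In the Epi pair, 8 of 9 Paneth markers were called higher in F4KO, with a summed ratio of 1.94 (Mmp7 205 and 574 reads, Defa17 1070 and 2488). Of all genes, 20% were called higher in this pair and 2.51% lower. After centring, 4 of the 9 were called higher, where 11.6% of all genes were. The Paneth list includes Nupr1, which also stands on the list of other ATF4 and amino acid response genes. Nupr1 was called here, with 90 and 129 reads. Smoc2 and Olfm4 were called higher among 4 stem cell markers, with a summed ratio of 2.91. All 7 enterocyte markers passed the FDR lower, where 7.92% of all genes did. Of the 7, 4 were called, led by Apoa4 and Fabp1 with log2 fold changes of −1.30 and −1.16 in the authors' deposited table. After centring, all 7 were called lower, where 6.89% of all genes were. Of 10 goblet markers, 2 were called higher (Spink4, ratio 2.04, and Agr2, ratio 1.75) and 0 lower. At any fold, 6 goblet markers passed the FDR higher, where 30.6% of all genes did. Another 3 passed it lower (Tff3, ratio 0.941, Clca1, ratio 0.916, and Zg16). Muc2 and Fcgbp were among the 6, and their deposited log2 fold changes were 0.565 and 0.414. Neither had recovered Epi reads, so both are outside the summed ratio of 1.03, which covers 5 markers. Of 7 enteroendocrine markers 1 was called higher (Gcg, ratio 2.58), and the list's median was 0.17 in the authors' deposited table, under that of all genes. F4KO Epi, the library in which 9 of 10 ER chaperones and 4 of 5 isomerases and related genes passed the FDR higher and Dnajb9 and P4hb passed it lower, thus had more reads of Paneth and stem cell markers and fewer of enterocyte markers. The part of these markers in the results was not tested.

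Markers of T cells, of fibroblasts and muscle, and of plasma cells other than Txndc5 were close to absent in the organoids. T cell markers had 7 summed reads in each organoid library, and Jchain had 1 and 0. In the Epi libraries the 4 T cell markers summed to 992 and 842 reads (ratio 1.04, 0 called), and Jchain had 83 and 182 reads (ratio 2.70). There, 5 of 5 fibroblast and muscle markers were called higher, where 20% of all genes were, from 22 and 195 summed reads. Macrophage markers summed to 77 and 106 Epi reads and to 173 and 106 organoid reads, the latter almost all Cd68. Pancreatic acinar markers summed to 61 and 45 Epi reads and 169 and 208 organoid reads, with 0 called in either pair. Of the 7 plasma cell markers found, Jchain and Txndc5 were called higher and Prdm1 lower in the Epi pair, and 0 were called in the organoids. Plasma cells carry a strong XBP1 programme. Txndc5, which is also on the list of ER folding genes, had 1869 and 2634 Epi reads. Mzb1 and Tnfrsf17 of the plasma cell list had 6 and 9 and 1 and 0. The immunoglobulin genes Igha and Igkc of that list were not found among the listed genes. The part of these cells in the Epi results was not tested.

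**Figure D5:**
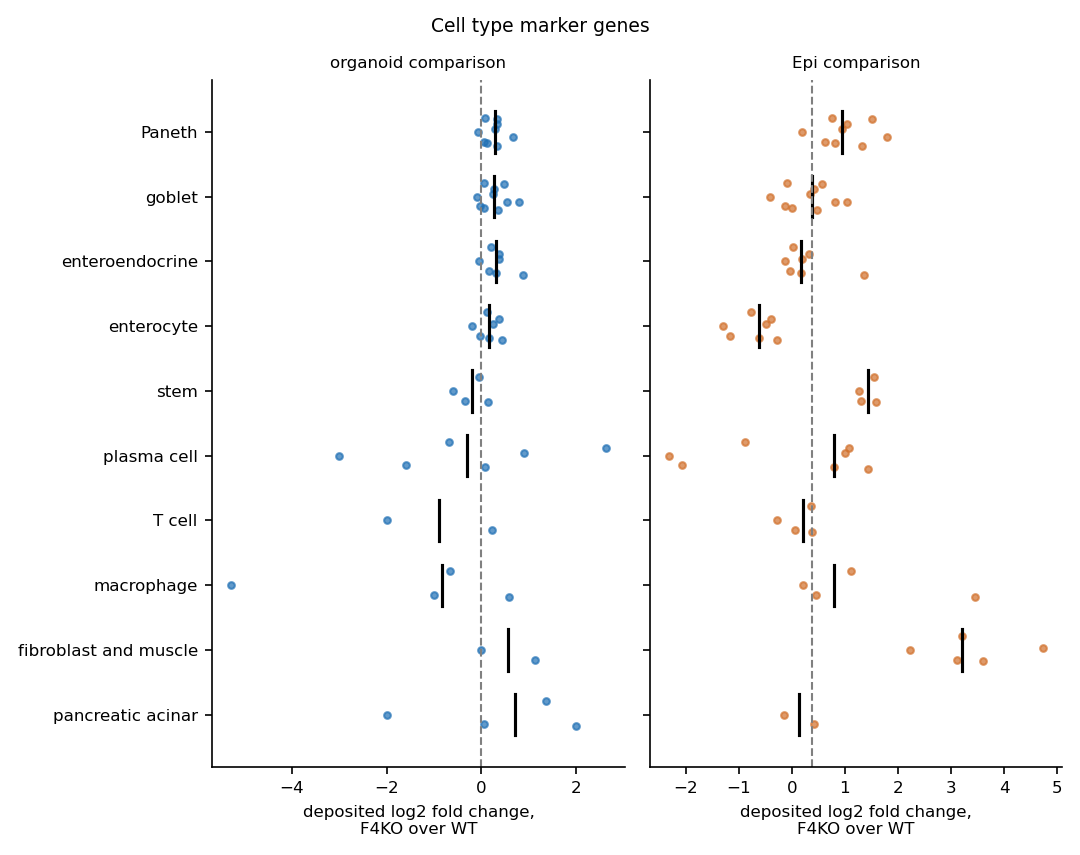
Deposited log2 fold change (x axis, F4KO over WT) of each cell type marker in the organoid comparison (left) and the Epi comparison (right), with a black bar at each list's median and a dashed line at the median of all genes; the x ranges differ. In the Epi pair all 7 enterocyte markers lie below 0 and all 9 Paneth, 4 stem and 5 fibroblast and muscle markers above it, while the widest organoid points are from genes with few reads.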

How the data were processed

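Gene and transcript tables of 2 comparisons were used, with 0 per-sample columns left out. Each held a log2 fold change that the authors deposited, F4KO over WT by the order of names in the header, a p-value deposited by the authors under a Poisson name, per the file headers, and an FDR. Builds GRCm38 and mm10 stand in the submitters' processing notes; no source used here names the aligner, quantifier or annotation. Read numbers were recovered by finding whole numbers that give the deposited p-value (two-sided Audic-Claverie test, relative tolerance 6e-06) and fold change. With members' p-values shifted by 0.03%, 0 of 64 gene values and 2 of 117 transcript values still matched. In a test on simulated data for the organoid comparison, 190 of 196 genes were recovered and 0 came out wrong; for the Epi comparison, 189 of 194 and 0. Recovery was not tested separately for the 16 members with several listed transcripts, Xbp1 among them. The WT Epi total was taken as 1.12 times that of WT organoids, from the level per read of 15 of 43 genes that gave the same value within 0.2%. Python 3.11.15, numpy 2.4.6, pandas 2.3.3 and scipy 1.17.1 were used.

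No test of genotype was possible with 1 library a group. The members and lists were chosen with earlier results of these data known. All members are named; those called, or at the ends of their role group, have full values, and of other lists the 2 highest and 2 lowest called genes are named. Promoters are from RefSeq (GRCm38.p6), and the Xbp1 transcript is from GENCODE on GRCm38. Fold limits, FDR limits, centring, read minimums, the transcript table and read ratios were tried as alternatives.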

Additional observations from a re-analysis of the deposited data

Results flagged for a closer look

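For 4 members the genotypes differed one way in the organoids and the other way in the Epi pair, with the deposited FDR at most 0.001 in both. That is 12.5% of the members, where 458 of the 14962 genes with a fold change in both pairs (3.06%) met the same rule; the members' read numbers, which bear on the FDR, were not matched. The Epi minus the organoid log2 fold change in the authors' deposited table was 1.23 for Hsp90b1, 0.87 for Canx, −0.42 for P4hb and −1.42 for Trib3. Hsp90b1 and Canx were lower in F4KO organoids and higher in F4KO Epi, and P4hb and Trib3 the reverse. After the median of all genes was subtracted these 4 members kept opposite signs. With 1 library a genotype in each pair, the difference between the pairs was not tested.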

How the results depend on the processing

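In the organoid comparison 0 members were called at a fold of 1.5 or 2, with an FDR of at most 0.05 or none, or after centring on the median of all genes, while 2 were called at the lower fold limit that was tried, 6 with no fold limit and 6 from the transcript table. In the Epi comparison 13 members were called, 13 also with an FDR of at most 0.05 or none. That count was 5 at a fold of 2, 21 at the lower fold limit, 24 with no fold limit, 8 after centring and 20 from the transcript table. Fold limits act by construction; for the transcript table, the cause was not tested. The Epi median of 0.46 became 0.08 after centring, and the median difference between the pairs, 0.44, became 0.06 (chosen after seeing the data). All other medians and same-sign counts moved by under 0.05 on the log2 scale or under 1.5 times. No paired analysis was possible because each genotype has 1 library in a comparison. Leaving out a replicate was not possible for the same reason. Depth limits Ern1, Ern2 and Eif2ak3 in the organoids and Chac1 in the Epi pair.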
